A study of Zea mays with 48 samples.

Results

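The step from 6 h to 12 h of tunicamycin was read in seedling roots of B73, the maize inbred from which the species' reference genome was first made. Its members were the 3 libraries of 12 h and the 3 libraries of 6 h, taken by the column names of the deposited count table, that is 6 of 24 libraries and 12 of 47 lane samples analysed. Seedlings were grown in glass bottles for 7 days, all 6 libraries come from seedlings given 5 µg/ml tunicamycin, and the groups differ by label only in the duration of treatment. Other groups used here were 3 h, 24 h, 36 h and 48 h at the same dose, 0 h, and a 48 h mock. No mock of 12 h or 6 h was analysed here, so treatment and time in the bottles cannot be told apart in this step. Whole roots were extracted, so fewer cells of a type and less RNA per cell cannot be told apart either.

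Tunicamycin stops the first step of N-linked glycosylation, and glycoproteins then fail to fold in the endoplasmic reticulum (ER). Plant cells answer through membrane-bound sensors, among them the RNase IRE1, which splices the mRNA of the transcription factor bZIP60, and bZIP factors released from the membrane by proteolysis. Their known targets include ER chaperones, folding enzymes and the machinery that degrades misfolded proteins, and long unresolved stress is known to end in cell death. Whether individual genes of these pathways moved in this step could not be read, nor could root markers be checked, because 0 of 23753 gene identifiers matched a reference table of 49888 maize genes. Genes are therefore described by how they moved in other, separate libraries, and at most 2 identifiers per direction are named.

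The labels conflict on time. Titles give other times to these samples (24 h or 36 h for the 6 h libraries, and 48 h or 48 h mock for the 12 h libraries), whereas the library names in the descriptions and the columns of the count table give 6 h and 12 h. The titles also split single libraries: the 2 lanes of library II of 6 h are titled 24 h and 36 h, and those of library II of 12 h are titled 48 h and 48 h mock. The times used are those of the library names. Libraries held 22436181 to 28823685 reads at 12 h and 30516970 to 38577551 at 6 h.

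The 3 libraries of each time were not equally far from each other. Libraries I and II differed with a biological coefficient of variation (the spread beyond counting noise) of 0.0769 at 12 h and 0.0435 at 6 h. Library III differed from them by 0.317 and 0.324 at 12 h and by 0.276 and 0.278 at 6 h. The pattern was not particular to these times. Libraries I and II differed by 0.039 at 0 h, 0.0538 at 3 h, 0.096 at 36 h and 0.0615 in the mock. Library III differed from them there by 0.248 and 0.247, 0.213 and 0.21, 0.258 and 0.275, and 0.293 and 0.293. It was weaker at 48 h (0.143, against 0.208 and 0.254) and absent at 24 h (0.284, against 0.267 and 0.403). Libraries I and II still differed by more than counting noise (chi-square per degree of freedom 6.43 at 12 h and 3.75 at 6 h), but repeat preparations of 1 sample can do so too. The 2 lanes of a single library, each with only part of its reads, differed by a root mean square of 0.421 and 0.602 on the log2 scale for libraries I and II of 12 h and of 0.481 and 0.391 for those of 6 h. Libraries I and II themselves, with both lanes summed, differed by 0.280 at 12 h and 0.206 at 6 h. They were counted as separate replicates because the labels number them so, and whether they came from separate seedlings was not tested. The series states biological replicates, and nothing in the labels says which seedlings each library came from.

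Library III of 12 h also stood apart in which libraries it was closest to. By the root mean square difference of log2 CPM over all genes, its nearest library was library I of 36 h (0.472), and it lay at 0.738 and 0.763 from libraries I and II of 12 h. It lay at 0.635, 0.637 and 0.732 from libraries I, II and III of 6 h. Library I of 12 h was nearest to library II of 12 h (0.280). Library III of 6 h was nearest to library III of the 48 h mock (0.562). It lay at 0.648 and 0.645 from libraries I and II of 6 h. Whether library III of 12 h or of 6 h was exchanged with another library cannot be settled from the labels and was not tested. Every 12 h and 6 h mean and count below includes these libraries unless stated. On the first principal component, libraries I, II and III lay at -51.2, -45.4 and 16.7 at 12 h and at 40.8, 40.2 and 31.5 at 6 h.

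**Figure D1:**
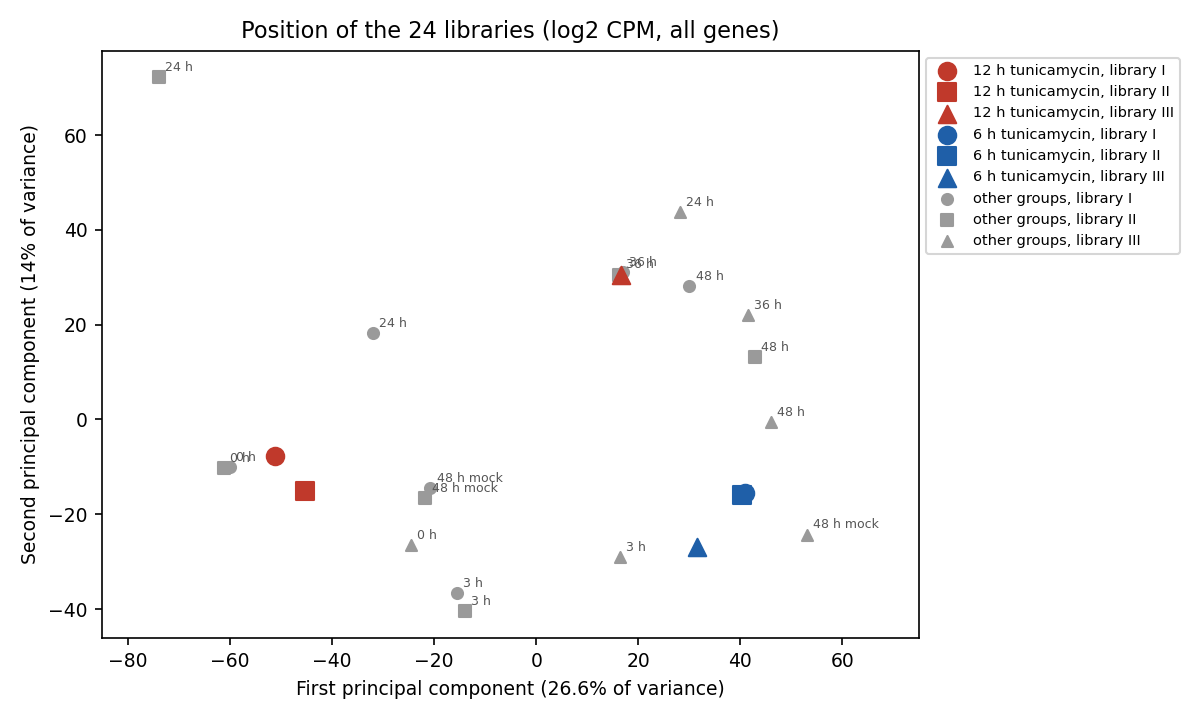
First against second principal component of log2 CPM for all 24 libraries, with 12 h in red, 6 h in blue and the other groups in grey; marker shapes give the library number. Libraries I and II of 12 h lie at -51.2 and -45.4 on the first component, beside those of 0 h, and library III of 12 h lies at 16.7, on top of libraries I and II of 36 h.

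At 12 h against 6 h, 1496 genes rose and 705 fell (edgeR's quasi-likelihood test, Benjamini-Hochberg adjusted p below 0.05, all groups in 1 model), which is 6.30% and 2.97% of the 23753 genes tested. Risen genes stood at a median of 20.9 CPM at 12 h, against 10.7 CPM at 6 h, where CPM is the read number scaled to a common library size. Their median change was 0.95 on the log2 scale. Fallen genes stood at a median of 23.6 CPM at 12 h, against 37.2 CPM at 6 h, and their median change was -0.65 on the log2 scale. A change of 2-fold or more was seen in 685 risen genes (45.8%) and 144 fallen genes (20.4%), one of 4-fold or more in 74 of the 1496 and 38 of the 705, and one of 8-fold or more in 12 and 10. The 95th percentile of the risen genes was 1.98 and the 5th percentile of the fallen genes -2.07 on the log2 scale. The median log2 fold change over all genes was -0.0043.

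The call of single genes depended on how libraries I and II were taken. Once libraries I and II of a group were summed, 0 genes were called by edgeR (lowest adjusted p 0.0732), where 3343 genes had an unadjusted p below 0.05, 2050 of them higher and 1293 lower at 12 h; no other tool was run on the summed libraries. Without library III of 12 h, 2273 genes rose and 1555 fell, of which 1328 and 569 were among those called with it. The counts were 343 and 62 when 12 h library I was left out and 476 and 95 when 12 h library II was. They were 400 and 161 when 6 h library I was left out and 340 and 134 when 6 h library II was. Without library III of 6 h they were 1179 and 574. From the reads of lane 6 alone 2547 genes rose and 1680 fell, and from those of lane 7 alone 459 and 179. With only the 12 h and 6 h libraries in the model, 930 rose and 489 fell, and 738 and 270 of these were called in the model of all groups.

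The direction of the step was next read in libraries that had not chosen the genes. In libraries I and II alone, 1960 genes rose and 1286 fell. In the pair of libraries III (12 h minus 6 h), 76.5% of these risen genes were higher at 12 h, with a median log2 difference of 0.34 against 1.01 in libraries I and II. For all genes, 49.4% were higher. Of the fallen genes, 57.8% were lower in the pair of libraries III, with a median of -0.11 against -0.98 in libraries I and II. Across all 23753 genes, the step in the pair of libraries III and the step in libraries I and II correlated with a Spearman coefficient of 0.231 and a Pearson coefficient of 0.142; genes are not independent replicates, and all 6 libraries share 1 scaling.

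The levels of the genes called in the step were followed across all groups. The median risen gene had 14.7 CPM in the 48 h mock, 19.6 CPM at 0 h, 13.9 CPM at 3 h and 10.7 CPM at 6 h. It had 20.9 CPM at 12 h, then 17.6, 15.8 and 13.1 CPM at 24 h, 36 h and 48 h. The median fallen gene had 30.7 CPM in the mock, 23.2 CPM at 0 h, 32.1 CPM at 3 h and 37.2 CPM at 6 h, and 23.6 CPM at 12 h, then 27.5, 28.2 and 32.9 CPM at 24 h, 36 h and 48 h. Both sets stood near their 0 h level at 12 h and further to the 6 h side at 48 h. The 48 h mock lay on that side too. The risen genes had a median log2 difference from 0 h of -0.49 in the mock and -0.64 at 48 h, and the fallen genes 0.40 and 0.47. Genes chosen for their 12 h level can move back after it by the choice alone, and the cause of the late levels was not tested. By group means, 1423 of the 1496 risen genes were below 0 h at 6 h, and 718 of these were at or above 0 h at 12 h. Of the 705 fallen genes, 693 were above 0 h at 6 h, and 361 of these were at or below 0 h at 12 h. The genes were chosen on the 12 h and 6 h libraries, so these levels at 6 h and 12 h are a description. An extreme level at 6 h favours the call, so the side of 0 h held at 6 h partly follows from the choice. The same counts over all genes were not computed. Among the 598 risen genes that were at least 2-fold below 0 h at 6 h, the step covered a median of 86.6% of the log2 distance to 0 h. For 132 fallen genes that had stood 2-fold or more above 0 h it covered 84.3%. Genes that did not move in the step were left out by the call, so a large share covered partly follows from the choice.

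As a share of all reads in a library, the risen genes took 10.5%, 10.4% and 8.26% in libraries I, II and III of 12 h, against 5.05%, 5.02% and 5.10% at 6 h. They had taken 8.47%, 8.63% and 7.53% at 0 h. The fallen genes took 2.74%, 2.76% and 3.34% at 12 h, against 5.22%, 5.23% and 4.79% at 6 h, and 2.94%, 2.90% and 3.34% at 0 h. In both sets library III of 12 h was the one nearest to the 6 h values, and it lay outside their range. This was not particular to 12 h. In every group but 6 h, library III had the lowest share of risen genes and the highest of fallen genes. In the mock, the risen genes took 6.57%, 6.85% and 4.95% in libraries I, II and III, and the fallen genes 3.91%, 3.76% and 5.02%.

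**Figure D2:**
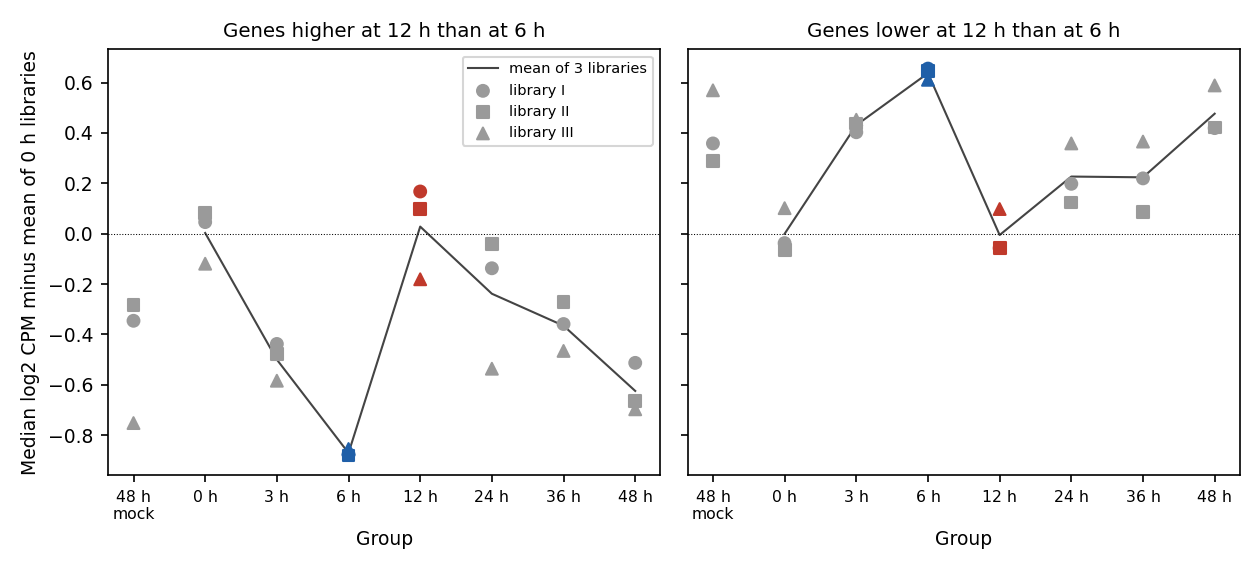
Median over the genes higher (left) or lower (right) at 12 h than at 6 h of log2 CPM minus the mean of the 0 h libraries, for each library (points; 12 h red, 6 h blue), with the mean of the 3 libraries as a line from 0 h to 48 h and the 48 h mock at the left. The risen genes fall to -0.88, -0.88 and -0.86 in the 6 h libraries and stand at 0.17, 0.10 and -0.18 in the 12 h libraries; the values at 6 h and 12 h follow from the choice of genes.

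Genes that changed between 0 h and 3 h were followed through the step in separate libraries. No mock of 3 h was analysed here, so treatment and time in the bottles cannot be told apart in these lists either. Against 0 h, 1966 genes rose at 3 h (8.28% of those tested) and 1760 fell (7.41%), and that comparison uses no library of 12 h or 6 h. Of the 1760 early fallen genes, 518 rose between 6 h and 12 h and 3 fell, that is 29.4% risen where all genes gave 6.30%. Of the 1966 early risen genes, 276 fell in the step and 11 rose, that is 14% fallen where all genes gave 2.97%. The median log2 change in the step was 0.42 for the early fallen genes and -0.34 for the early risen genes. Most genes of either list, 70.4% and 85.4%, were not called in the step. The lists themselves rest on counting libraries I and II apart: with these summed, 39 genes rose and 37 fell at 3 h. Nor was any gene of these or the later lists then called in the step by edgeR, since 0 genes passed over the whole table, and the list medians were 0.40 and -0.29.

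These medians had the same sign in each 12 h library. Set against the mean of the 6 h libraries, the early fallen genes had a median log2 difference of 0.43, 0.39 and 0.45 in libraries I, II and III of 12 h, while the 6 h libraries themselves lay at -0.10, -0.09 and 0.20. The early risen genes had -0.33, -0.32 and -0.36 at 12 h, with 0.09, 0.09 and -0.18 at 6 h. The 12 h and 6 h libraries did not overlap in either list. In the pair of libraries III alone, the medians were 0.25 for the early fallen and -0.19 for the early risen genes, smaller than the medians of 0.52 and -0.40 in libraries I and II. Without library III of 12 h, 553 early fallen genes rose and 299 early risen genes fell, where all genes gave 9.57% and 6.55%. When a 12 h library was left out, 185 (library I) or 224 (library II) early fallen genes rose and 37 or 56 early risen genes fell. When a 6 h library was left out, these counts were 178 (library I) or 154 (library II) and 49 or 44. On lane 7 alone they were 123 and 36. All genes gave 1.44% risen and 0.261% fallen without 12 h library I, and 2% and 0.4% without 12 h library II. They gave 1.68% and 0.678% without 6 h library I, 1.43% and 0.564% without 6 h library II, and 1.93% and 0.754% on lane 7.

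The step itself was tested against the first step. For 6930 genes (29.2% of those tested) the log2 change from 6 h to 12 h differed from that between 0 h and 3 h by edgeR's test of the difference, over groups that share no library. The differences are signed: it was larger, that is more upward, for 3561 of them and smaller, that is more downward, for 3369. With libraries I and II summed these counts were 681 and 533. Tested against the last step, from 36 h to 48 h, the change differed for 2225 genes (9.37%), being larger for 1357 and smaller for 868, and both counts were 0 with libraries I and II summed by edgeR (1951 and 1350 genes with an unadjusted p below 0.05; no other tool was run). On lane 7 alone they were 35 and 9, and on lane 6 alone 3029 and 2415. Leaving out 12 h library I gave 628 and 294, and 12 h library II 720 and 327. Leaving out 6 h library I gave 724 and 394, and 6 h library II 678 and 359. Without library III of 12 h, 1412 genes had a more downward step.

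Counts of other steps are given side by side; those of 3 h to 6 h and of 12 h to 24 h, and both comparisons with 0 h, share libraries with this step, and that of 36 h to 48 h does not. Between 3 h and 6 h, 3 genes rose (0.0126%) and 10 fell (0.0421%) by edgeR, 34 and 186 by DESeq2, and 0 and 1 with libraries I and II summed. Between 12 h and 24 h, 474 rose (2.00%) and 251 fell (1.06%) by edgeR, and 1025 and 758 by DESeq2. These counts were 32 and 14 when 12 h library I was left out, 1 and 4 for 12 h library II, 802 and 535 for 12 h library III, and 4637 and 4973 on lane 6 alone. On lane 7 alone and with libraries I and II summed, edgeR called 0 genes, with 1151 and 1768 at an unadjusted p below 0.05. Leaving out 6 h libraries, which enter only through the spread of the model, gave 301 and 153 (library I) and 304 higher genes (library II). Between 36 h and 48 h, edgeR called 0 genes (0.00%), with 1484 at an unadjusted p below 0.05, and DESeq2 called 24 higher and 23 lower. Against 0 h, 217 genes were higher (0.914%) and 88 lower (0.370%) at 12 h, while 3342 were higher (14.1%) and 3285 lower (13.8%) at 6 h. With libraries I and II summed these were 9 and 1 at 12 h and 13 and 81 at 6 h.

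Many of the genes that were higher than the mock late in the treatment also rose in the step. At 48 h against mock, 80 genes rose (0.337% of those tested) and 32 fell (0.135%), or 3 and 0 with libraries I and II summed (351 and 247 at an unadjusted p below 0.05). Of the 80 late risen genes, 51 rose between 6 h and 12 h and 1 fell, that is 63.7% risen where all genes gave 6.30%. Their median log2 change was 0.90, and their median level was 60.5 CPM at 12 h, against 31.6 CPM at 6 h. Against the mean of the 6 h libraries, the list stood at 1.12, 0.995 and 0.62 in libraries I, II and III of 12 h, and at 0.06, 0.06 and -0.11 in those of 6 h, so the times did not overlap. In the pair of libraries III, 93.8% of these 80 genes were higher at 12 h, with a median of 0.66. Of the 80, 27 rose when 12 h library I was left out, 29 when 12 h library II was and 50 when 12 h library III was. The counts were 34, 33 and 40 when the 6 h libraries were left out in turn, from I to III. Over all genes, 1.44%, 2% and 9.57% rose without the 12 h libraries in that order. Without the 6 h libraries these shares were 1.68%, 1.43% and 4.96%.

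Set against the same 48 h mock, the 36 h libraries had 160 genes higher (0.674%) and 76 lower (0.320%). No mock of 36 h was analysed here, so treatment and time in the bottles cannot be told apart in these lists. Of the 160, 81 rose in the step (50.6%, where all genes gave 6.30%) and 1 fell, with a median log2 change of 0.78 and medians of 0.75, 0.75 and 0.71 in libraries I, II and III of 12 h. With 12 h library I left out 48 of them rose, and with 12 h library II left out 52. With 6 h library I left out 49 rose, and with 6 h library II left out 52. All genes gave 1.44%, 2%, 1.68% and 1.43% risen in these fits, in the same order. With libraries I and II summed, 3 genes were higher and 0 lower at 36 h than in the mock (686 and 346 at an unadjusted p below 0.05). Both late lists rest on the same mock libraries and so do not count as 2 independent ones. The late fallen genes are few. Of the 32 genes lower at 48 h, 3 rose (9.38%) and 2 fell (6.25%) in the step, with a median of 0.26. Of the 76 lower at 36 h, 3 rose (3.95%) and 9 fell (11.8%), with a median of -0.04. Over all genes 6.30% rose and 2.97% fell. In each fit that left out a library I or II of either time, 2 of the 76 fell, and 14 fell when 12 h library III was left out. Over all genes, between 0.261% and 0.678% fell in the former fits and 6.55% in the latter.

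The genes called in the step were sorted by these lists. Of the 1496 genes that rose between 6 h and 12 h, 518 had fallen at 3 h (34.6%, where all genes gave 7.41%). Higher than the 48 h mock at 36 h or 48 h were 83, and 10 of these 83 had also fallen at 3 h. Those higher at 36 h were 81 (5.41%, where all genes gave 0.674%). Those higher at 48 h were 51 (3.41%, where all genes gave 0.337%). In all, 143 fell in the mock between 0 h and 48 h (9.56%, where all genes gave 1.14%). In none of these lists, nor among the 11 that rose at 3 h, were 883 genes. Of the 705 genes that fell, 276 had risen at 3 h (39.1%, where all genes gave 8.28%). Lower than the 48 h mock at 36 h or 48 h were 10. At 36 h these were 9 (1.28%, where all genes gave 0.320%), and at 48 h 2 (0.284%, where all genes gave 0.135%). In none of the corresponding lists were 405 genes. The share of all genes in none of the lists was not computed.

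Part of the genes that changed in the mock moved the other way in the step. Between 0 h and 48 h in the mock, 219 genes rose (0.922%) and 271 fell (1.14%). Of the 271 that fell in the mock, 143 rose between 6 h and 12 h of tunicamycin (52.8%, where all genes gave 6.30%) and 0 fell by edgeR (0 fell at an unadjusted p below 0.05, and DESeq2 called 161 higher and 0 lower), with a median log2 change of 0.62. Of the 219 that rose in the mock, 81 fell in the step (37%, where all genes gave 2.97%), with a median of -0.44. By edgeR 0 of them rose (1 at an unadjusted p below 0.05). DESeq2 called 109 of them lower and 0 higher. Over all genes DESeq2 called 9.59% higher and 5.94% lower. Leaving out 12 h library I turned the 143 and 81 into 77 and 17, and 12 h library II into 78 and 23. Leaving out 6 h library I gave 71 and 26, 6 h library II gave 60 and 26, and lane 7 alone gave 27 and 16. Over all genes, 1.44% rose and 0.261% fell without 12 h library I, and 2% and 0.4% without 12 h library II. The shares were 1.68% and 0.678% without 6 h library I and 1.43% and 0.564% without 6 h library II. On lane 7 they were 1.93% and 0.754%. With libraries I and II summed, edgeR called 0 genes in the mock against 0 h (2693 at an unadjusted p below 0.05). The mock comparison shares the 0 h libraries with that of 3 h, and 125 of the 143 genes had also fallen at 3 h. At 3 h, 7.41% of all genes and 34.6% of the 1496 risen genes had fallen. The share among all 271 genes was not computed, and the shared 0 h libraries alone can raise this overlap.

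Lists from 36 h against 0 h showed where library III of 12 h differed from libraries I and II. They share the 0 h libraries with the early and mock lists and the 36 h libraries with a late list, so they are not independent of these. The 996 genes higher at 36 h (4.19%) had a median of 0.04 in library III of 12 h and of -0.22 in each of libraries I and II, against the mean of the 6 h libraries. In the pair of libraries III their median log2 difference was 0.25, and in libraries I and II it was -0.30. Of these 996 genes, 81 rose in the step (8.13%, near the 6.30% of all genes) and 73 fell (7.33%, where all genes gave 2.97%). The counts were 39 and 12 when 12 h library I was left out, 47 and 14 for library II, and 88 and 141 for library III. They were 43 and 17 when either 6 h library I or II was left out, and 58 and 84 for 6 h library III. All genes gave 1.44% risen and 0.261% fallen without 12 h library I. They gave 2% and 0.4% without library II of 12 h and 9.57% and 6.55% without library III of 12 h. Without 6 h library I the shares were 1.68% and 0.678%, without II 1.43% and 0.564%, and without III 4.96% and 2.42%. The 1066 genes lower at 36 h (4.49%) had medians of 0.57, 0.46 and 0.29 in libraries I, II and III of 12 h, and 245 of them rose in the step (23%) while 10 fell. Of these 1066 genes, 60 rose when 12 h library I was left out, 91 for library II and 333 for library III. With 6 h library I and II left out in turn, 73 and 66 rose. The shares of all genes that rose in these fits are those given above. With libraries I and II summed, 5 genes were higher and 0 lower at 36 h than at 0 h (1764 and 1627 at an unadjusted p below 0.05).

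The step was also set beside 24 h against 3 h, a comparison that brackets it with other libraries. It shares the 3 h libraries with the early lists, so its lists and the early lists do not count as independent. There 1629 genes were higher at 24 h (6.86%) and 1206 lower (5.08%). These were 5386 and 5377 on lane 6 alone, 119 and 178 on lane 7 alone, and 29 and 6 with libraries I and II summed. Library II of 24 h, with 7701856 reads from 1 lane, stood apart at -74.0 and 72.2 on the first and second principal components. Of the 1629, 281 rose between 6 h and 12 h (17.2%, where all genes gave 6.30%) and 7 fell, with a median log2 change of 0.28. Of the 1206, 106 fell (8.79%, where all genes gave 2.97%) and 18 rose, with a median of -0.20. Leaving out 12 h library I turned the 281 and 106 into 114 and 10, and 12 h library II into 141 and 17. Leaving out 6 h library I gave 117 and 16, and 6 h library II 111 and 13. Over all genes, 1.44% rose and 0.261% fell without 12 h library I, and 2% and 0.4% without 12 h library II. The shares were 1.68% and 0.678% without 6 h library I and 1.43% and 0.564% without 6 h library II. The medians of the first list were 0.29, 0.18 and 0.30 in libraries I, II and III of 12 h.

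**Figure D3:**
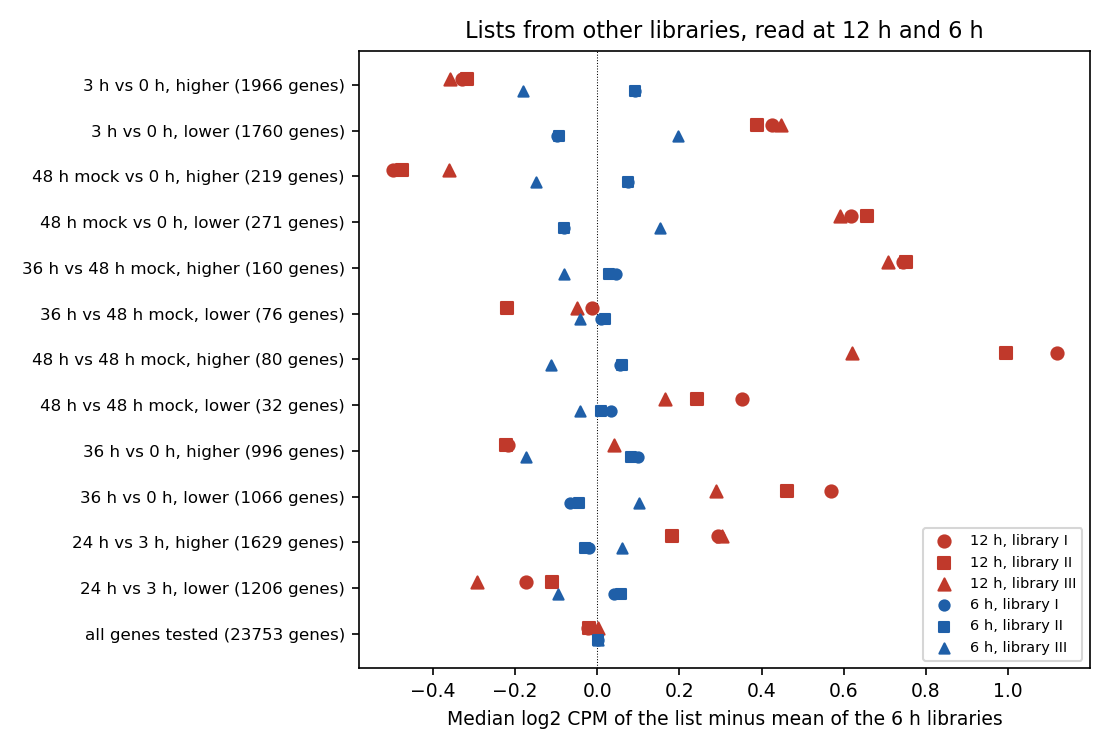
Median over each gene list of log2 CPM minus the mean of the 6 h libraries, for the 12 h libraries (red) above the 6 h libraries (blue), with marker shape for the library number; each list was called in a comparison without 12 h or 6 h libraries. The 3 h lists lie at -0.36 to -0.32 and 0.39 to 0.45 at 12 h, the list higher at 48 h than in the mock lies at 0.62 to 1.12, and all genes lie near 0.

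Of 4 genes named by rule, Zm00001d049068 rose most. It had 97.0, 89.6 and 33.2 CPM at 12 h (libraries I, II, III), against 5.41, 5.81 and 5.97 CPM at 6 h. All 12 h libraries lay above all 6 h libraries, as the naming rule required, and library III was the lowest of its time. The means were 73.3 ± 34.9 CPM at 12 h and 5.73 ± 0.288 CPM at 6 h (SD, n = 3 libraries each), a log2 fold change of 3.68 (SE 0.45, adjusted p = 0.000375, edgeR). The gene stood at 0.286 CPM in the mock, 0.236 at 0 h and 0.436 at 3 h, and at 91.1, 55.7 and 43.4 CPM at 24 h, 36 h and 48 h. Its 12 h level and its 24 h level were not called different (log2 fold change 0.31 for 24 h against 12 h, SE 0.40, adjusted p = 0.697, edgeR), and 36 h and 48 h were not tested against 12 h. It is thus a gene of the late risen list that had already begun to rise at 6 h (adjusted p = 0.000234 against 0 h, edgeR; the 0 h libraries held 10, 2 and 3 reads).

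Zm00001d029183 rose with another course. It had 50.7, 43.5 and 7.44 CPM at 12 h (libraries I, II, III), against 3.41, 3.41 and 1.87 CPM at 6 h. The rule required that the times did not overlap, and library III of 12 h was much nearer to 6 h than libraries I and II were. The log2 fold change was 3.55 (SE 0.76, adjusted p = 0.010, edgeR). At 0 h the gene averaged 52.5 ± 33.6 CPM, and 12 h, at 33.9 ± 23.2 CPM, was not called different from it (adjusted p = 0.718, edgeR). It averaged 4.52 CPM in the mock and 16.4 CPM at 3 h, then 7.90, 17.7 and 9.70 CPM at 24 h, 36 h and 48 h. Its step was larger than the first step by a log2 difference of 5.22 (SE 1.02, adjusted p = 0.00132, edgeR) and larger than the last by 4.41 (SE 1.01, adjusted p = 0.0136, edgeR).

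Zm00001d036409 fell to near its 0 h level. It had 3.05, 2.98 and 5.41 CPM at 12 h (libraries I, II, III), against 47.0, 49.7 and 33.1 CPM at 6 h. Separation of the times was again required by the rule, and in each time the library III lay nearest to the other time. The log2 fold change was -3.50 (SE 0.85, adjusted p = 0.0192, edgeR), and 12 h was not called different from 0 h, at 3.81 ± 1.38 and 3.89 ± 1.85 CPM (adjusted p = 0.987, edgeR). It had risen at 3 h against 0 h (log2 fold change 2.95, adjusted p = 0.0235, edgeR), in other libraries, although library III of 3 h, at 60.9 CPM, was far above the other two at 14.4 and 15.5 CPM. It averaged 51.0 ± 41.8 CPM in the mock, 12.0 ± 3.43 CPM at 24 h, 32.8 ± 44.1 CPM at 36 h and 37.6 ± 22.4 CPM at 48 h. Leaving out library I or II of either time ended its call (adjusted p up to 0.092, edgeR), while the log2 fold change lay between -3.44 and -3.35.

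Zm00001d037868 had the largest fall by the rule, and the least stable one. It had 0.898, 0.870 and 1.99 CPM at 12 h (libraries I, II, III), against 5.82, 6.31 and 35.6 CPM at 6 h. Library III of 6 h was far above the other two. The log2 fold change was -3.66 (SE 1.05, adjusted p = 0.0364, edgeR). It was -2.27 without library III of 6 h, where the call was lost (adjusted p = 0.162, edgeR), and the call was lost in 5 of the 6 fits that left out 1 library. At 3 h the libraries spread as widely, from 1.31 to 11.7 CPM.

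None of the 4 genes was called with libraries I and II summed (adjusted p between 0.17 and 0.30, edgeR).

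**Figure D4:**
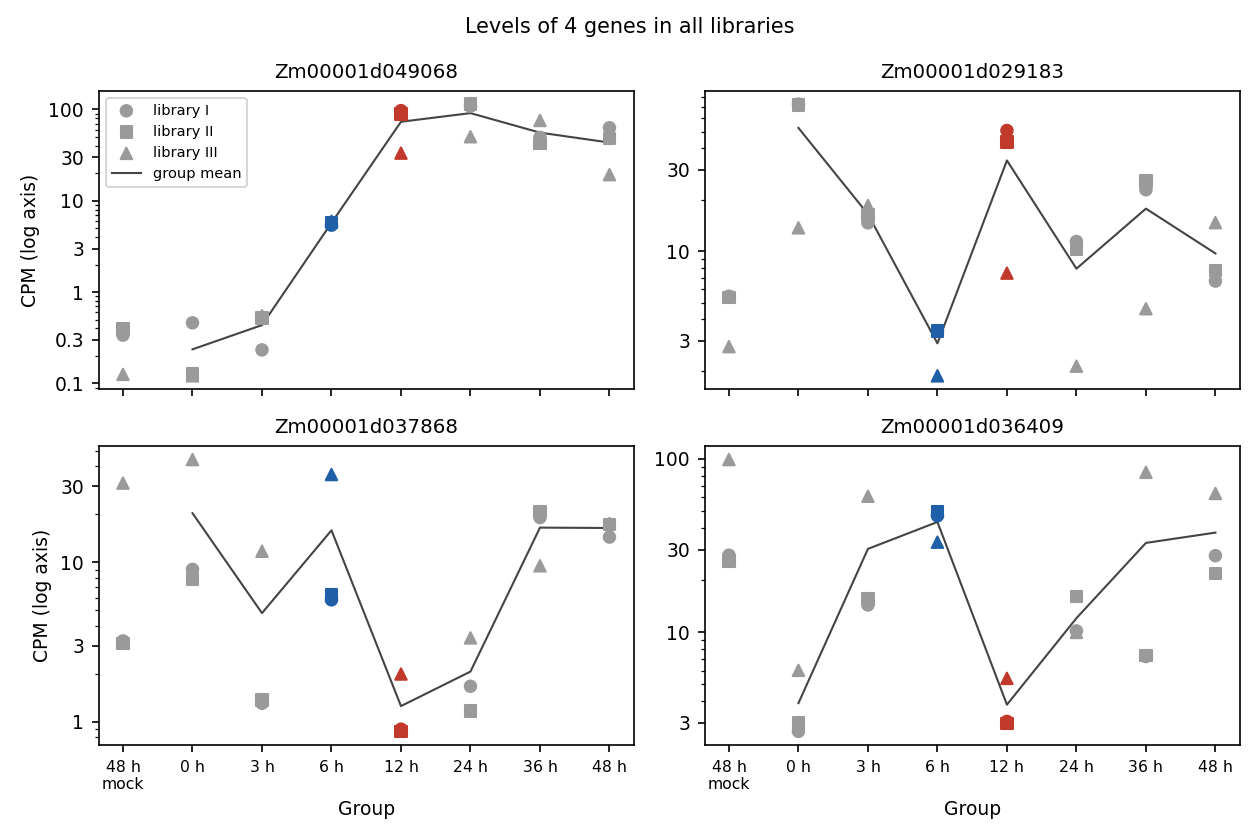
CPM on a log axis of the 4 named genes in all 24 libraries, with 12 h in red, 6 h in blue, other groups in grey and the group means as a line from 0 h to 48 h; the 48 h mock stands at the left. Zm00001d049068 averages 73.3 CPM at 12 h and 91.1, 55.7 and 43.4 CPM at 24 h, 36 h and 48 h, while Zm00001d029183 and Zm00001d036409 average 33.9 and 3.81 CPM at 12 h, beside 52.5 and 3.89 CPM at 0 h, with libraries III apart.

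The step differed by gene length as well. Lengths solved from the deposited values had a median of 2420 bp among risen genes and 4837 bp among fallen genes, against 3513 bp over all genes. In the shortest quartile of genes (132 to 1788 bp), 8.89% rose and 1.31% fell, with a median log2 change over all genes of the quartile of 0.21. In the longest quartile (6003 to 128402 bp), 2.34% rose and 4.28% fell, with a median of -0.13. The medians of the shortest quartile were 0.20, 0.08 and 0.27 in libraries I, II and III of 12 h against the mean of 6 h, and those of the longest were -0.15, -0.08 and -0.15, so every 12 h library showed the same order. The labels do not say whether these lengths count introns.

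The early lists differed in length as well, with a median of 4661 bp for genes that rose at 3 h and 2532 bp for those that fell. Read within each length quartile, from the shortest to the longest, the early fallen genes had median log2 changes of 0.56, 0.44, 0.33 and 0.27 in the step, where all genes of the quartile had 0.21, 0.05, -0.03 and -0.13. The early risen genes had -0.48, -0.32, -0.33 and -0.33. The late risen genes of 48 h had 0.96, 0.74, 1.08 and 0.87. The medians of these lists kept their sign in every length quartile. The part of length in the single calls was not tested.

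**Figure D5:**
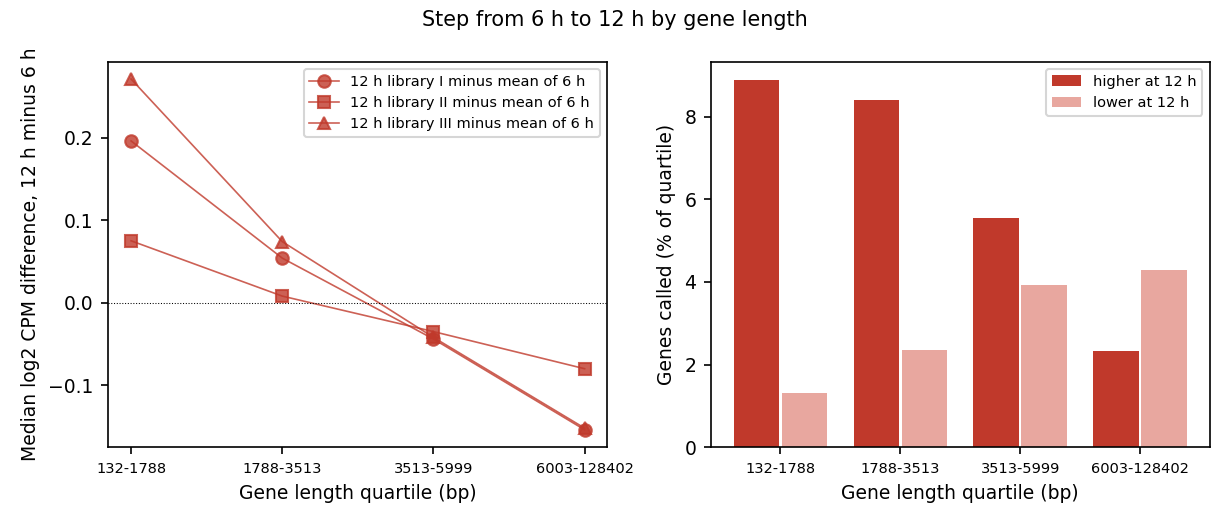
By quartile of gene length, the median log2 CPM difference of each 12 h library from the mean of the 6 h libraries (left) and the percentage of genes called higher or lower at 12 h (right). All 3 lines fall from the shortest genes, at 0.08 to 0.27, to the longest, at -0.15 to -0.08.

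Over quartiles of the mean level at 12 h and 6 h, from the lowest to the highest, 5.59%, 7.56%, 5.79% and 6.25% of genes rose and 1.2%, 2.31%, 4.24% and 4.13% fell. Of the 5 tested genes with at most 3 reads in each 6 h library 1 rose, of the 17 with at most 3 reads in each 12 h library 1 fell, and neither had 0 reads in all of them. Genes with very few reads in total are missing from the table analysed.

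The groups of the step did not overlap for 1417 of the 1496 genes that rose and 668 of the 705 that fell. Over all genes tested, the 3 libraries of 12 h lay above those of 6 h for 17.1% and below them for 17.9%, so complete separation was common among genes that were not called.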

How the data were processed

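The deposited counts are whole numbers of reads per gene and library, made by the authors with lanes 6 and 7 summed. The second deposited table holds RPKM per lane. The submitters' processing notes name STAR, featureCounts and edgeR, with no version; the sources used here give no genome build, annotation or use of strand, so counts of overlapping genes and near-identical copies are uncertain. Lane reads and gene lengths were solved from RPKM and counts (100% whole within 0.001 reads and 0.01 bp; largest difference from the counts 0). Lane 7 of library II of 24 h was not used here. Counts were tested with edgeR 4.0.16 in R 4.3.3 (TMM, 1 model of 8 groups, quasi-likelihood test; the low-count filter removed 0 genes), after a check on simulated counts. The SE is the log2 fold change over the root of F. Log2 CPM used a prior count of 2. Depth was 7701856 to 38577551 reads per library. DESeq2 1.42.0 was an alternative, among 17 in all, of which 16 were planned and 1, leaving out library III of both times, was chosen after seeing the data. Named genes were the 2 largest rises and 2 largest falls among called genes without overlap, with a mean of at least 5 CPM and also called without library III of 12 h. The members and lists were chosen with earlier results of these data known. The planned lists of named pathways could not be used, since 0 identifiers matched.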

Additional observations from a re-analysis of the deposited data

Results flagged for a closer look

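Of the 4 named genes, 3 had a step from 6 h to 12 h that differed from another step of the series by edgeR's test of the difference over separate libraries. For Zm00001d049068 the log2 change was larger than that from 36 h to 48 h by 4.04 (adjusted p = 0.00142, edgeR). For Zm00001d029183 it was larger than that from 0 h to 3 h by 5.22 and larger than that from 36 h to 48 h by 4.41. For Zm00001d036409 the difference from the first step was -6.45 (adjusted p = 0.000891, edgeR) and from the last step -3.70 (adjusted p = 0.0438, edgeR). These genes were picked for a large step, so a difference from other steps is partly given by the choice.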

How the results depend on the processing

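The counts of 1496 risen and 705 fallen genes depended on the setting; the cause was not tested, beyond the fewer reads or libraries that some settings use. They were 2277 and 1410 by DESeq2, 2299 and 1319 without 24 h in the model, 930 risen with only 12 h and 6 h, 2547 and 1680 on lane 6, 459 and 179 on lane 7, and 0 and 0 by edgeR with libraries I and II summed (3343 genes at an unadjusted p below 0.05). Without libraries III of both times, chosen after seeing the data, 1286 fell. Leaving out 1 library gave 340 to 2273 risen and 62 to 1555 fallen genes. For the step against that from 0 h to 3 h, 2283 genes were larger on lane 7, and 681 were larger and 533 smaller with I and II summed. For the step against that from 36 h to 48 h, 2052 were larger and 1481 smaller without 24 h, 3029 and 2415 on lane 6, 35 and 9 on lane 7, and 0 and 0 with I and II summed; 1497 were smaller by DESeq2 and 1407 without libraries III of both times, and leaving out 1 library gave 628 to 1929 larger and 294 to 1412 smaller. These last contrasts could not be computed with only 12 h and 6 h in the model. The list medians kept their sign in all 17 settings, between -0.45 and -0.23 for genes risen at 3 h, 0.26 and 0.60 for those fallen at 3 h, 0.81 and 1.05 for those higher at 48 h than in the mock and 0.05 and 0.50 for those lower. DESeq2 gave no adjusted p for Zm00001d037868.

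With the library number as a replicate block, 2322 genes rose and 1677 fell, and 2068 steps were larger and 1631 smaller than that from 36 h to 48 h. Deviations of same-numbered libraries correlated at 0.040, 0.078 and 0.060 for I, II and III, so the numbers were not taken as pairs, although each library correlated best with its own number or as well as with another.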
